A study of Homo sapiens with 3 samples.

Results

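Histone genes were examined in RNA from libraries labelled as HepG2, an established human liver cancer line. The defining liver markers were absent or near 0 in these libraries, which goes against the label. They were taken by name, as gene rows with HIST1H to HIST4H names or with H1, H2A, H2B, H3 or H4 names, from the tables of 3 libraries. The name rule took 96 of the 39320 gene rows on the assembled chromosomes, and 1 of these, the long noncoding RNA gene H19, is no histone gene and was left out. The remaining 95 rows comprise 68 replication-dependent genes, 12 variant genes, 11 genes known from the germ line and 4 named pseudogenes. The labels give 3 replicate libraries of 1 condition, wild-type HepG2 cells, with no treatment and no second genotype, in a study of an alternatively spliced form of METTL3, an RNA methyltransferase. The labels do not say whether the replicates came from separate cultures, so the spread between them may be technical. They give the RNA as polyA RNA. The values are TPM, a unit of transcript abundance that is scaled for gene length and brought to an equal sum in every library. Comparisons between genes have limits given below, from the polyA RNA, from sequences shared between genes and from the measure used.

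Depth was not known, because the tables hold no counts. The highest ratio of coverage to FPKM, a value that rises with the number of mapped reads, was 13.3, 12.8 and 11.5 in replicates 1, 2 and 3. The libraries are called HepG2 here after their label. Of the markers of liver cells, ALB (albumin), APOA1 and SERPINA1 were listed at 0 in all 3 libraries, AFP (alpha-fetoprotein) reached at most 0.0248 TPM and TTR (transthyretin) at most 0.203 TPM. The identity of the cells was not tested further, and every value below holds for the libraries as labelled.

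Nucleosomes wrap DNA around a core of H2A, H2B, H3 and H4, and the linker histone H1 binds the DNA between them. Replication-dependent histone genes lie in clusters, are transcribed in S phase to package new DNA, and make mRNAs that end after a short stem-loop in place of a poly(A) tail. The stem-loop binding protein holds this hairpin and guides the cut of the mRNA end. Variant histone genes lie outside the clusters, are used throughout the cell cycle and make polyadenylated mRNAs. A number of clustered genes can also make a longer, polyadenylated mRNA that runs past the stem-loop.

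The 3′ ends of the rows were read from GRCh38 to see which kind of mRNA end each row holds. The hairpin searched has the form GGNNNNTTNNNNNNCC, in which the first 6 and the last 6 bases pair, on the strand of the gene only. Over whole rows, fully paired hairpins were kept only if they began with GGC. Hairpins with a mismatch or another loop were kept only within 200 bases of the row end. Where several remained in a row, the last was taken. The count within 60 bases of the row end did not require GGC. By these rules a fully paired hairpin was found in 62 of the 68 replication-dependent rows. In 3 more rows 1 base pair was mismatched, and in the last 3 the loop began with TC instead of TT. A fully paired hairpin lay within 60 bases of the row end in 57 of 68 replication-dependent rows (83.8%), 0 of 12 variant rows and 3 of the 39225 rows that are no histone gene (0.00765%). The poly(A) signal AATAAA or ATTAAA was present in the last 50 bases of 5 of 68 replication-dependent rows (7.35%), 9 of 12 variant rows (75.0%) and 53.2% of all rows. The sequences below are 30-base stretches, shown 5′ to 3′ on the strand of the gene, with the hairpin in capitals. The first group comprises rows that end at the hairpin, and is shown as a selection from H1, H2A, H2B and H4 among the genes that averaged 10 TPM or more.
HIST2H2AA3, chr1:149842214-149842243, minus strand: caaaaGGCTCTTTTCAGAGCCacccacgtt
HIST1H1C, chr6:26055735-26055764, minus strand: caaaaGGCTCTTTTCAGAGCCaccactgat
HIST2H4A, chr1:149833027-149833056, plus strand: ccaaaGGCCCTTTTTAGGGCCgaccacttg
HIST3H2A, chr1:228457360-228457389, minus strand: ataaaGGCTCTTTTCAGAGCCacctactat
HIST1H2BJ, chr6:27132312-27132341, minus strand: ctaacGGCTCTTTTAAGAGCCacccatgtt

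The second group comprises the hairpin of rows that run on past it, of a row with 1 mismatched pair (HIST2H2BC) and of a row whose loop begins with TC (HIST1H3E).
HIST1H2BK, chr6:27146357-27146386, minus strand: ccaaaGGCTCTTTTAAGAGCCacttaaatt
HIST2H2BE, chr1:149886179-149886208, minus strand: ccaaaGGCTCTTTTCAGAGCCacccaccta
HIST1H2BD, chr6:26158582-26158611, plus strand: ccaaaGGCTCTTTTAAGAGCCacgcatgtt
H2AFX, chr11:119094889-119094918, minus strand: acaaaGGCCCTTTTAAGGGCCaccaccgcc
HIST2H2BC, chr1:149850293-149850322, minus strand: ccaaaGGCTCTTTTCAGGGCCatttaacca
HIST1H3E, chr6:26225591-26225620, plus strand: ccaaaGGCTCTTCTCAGAGCCaaccacttt

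The third group comprises the poly(A) signal, in capitals, near the end of the same long rows and of 3 further variant genes.
HIST1H2BK, chr6:27138295-27138324, minus strand: taccttAATAAAtttgtatgccttttctct
HIST2H2BE, chr1:149884460-149884489, minus strand: tgttattAATAAAgttaccaattaatttaa
HIST1H2BD, chr6:26171319-26171348, plus strand: ataattAATAAAatctgcggagaattgtaa
H2AFX, chr11:119093875-119093904, minus strand: aattttATTAAAggattgttttttttttaa
H2AFZ, chr4:99948088-99948117, minus strand: ggataagttcAATAAAggtcatatcccaaa
H1FX, chr3:129314771-129314800, minus strand: ttgggcacAATAAAgcgtttaaacctttca
H3F3B, chr17:75776434-75776463, minus strand: atgagactaaAATAAAatttttgaagttaa

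The stem of replication-dependent H4 rows differed from that of the other families. The search over whole rows set GGC at the start of fully paired hairpins, so among these only later bases could differ. All 15 replication-dependent H4 rows had the stem GGCC at the first 4 bases, and 52 of the 53 rows of the other families had GGCT, with GGTT in the remaining H2A row, HIST1H2AK. The variant H2AFX, an H2A gene, also had GGCC. The commonest hairpin, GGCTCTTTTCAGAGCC, occurred in 39 rows of H1, H2A, H2B and H3, and the commonest of H4, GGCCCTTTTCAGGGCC, in 10 rows.

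Variant histone genes made up most of the histone RNA in these libraries. The 12 variant genes summed to 2489.9, 2451 and 2410.4 TPM in replicates 1, 2 and 3, a mean of 2450.4 ± 39.8 TPM (SD, n = 3). The 68 replication-dependent genes summed to 969, 1021 and 944 TPM, a mean of 978 ± 39.3 TPM (SD, n = 3). The variant genes thus took 72.0%, 70.6% and 71.9% of the TPM of both classes together. With H2AFX, whose row holds a hairpin, counted among the replication-dependent genes, the variant share was 65.7%. Since the RNA is given as polyA RNA, mRNAs without a tail may be measured incompletely, and the part of this in the levels was not tested. In bulk RNA, fewer cells that express a gene and less RNA per cell cannot be told apart.

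At least 1 TPM in all 3 libraries was reached by 39 of 68 replication-dependent genes (57.4%) and 9 of 12 variant genes (75.0%), against 33.8% of all rows. A mean of at least 10 TPM was reached by 14 replication-dependent genes (20.6%), close to the 21.4% of all rows, and by the same number of variant genes as reached 1 TPM, 9 of 12. The median of the mean levels was 2.39 TPM over the replication-dependent genes and 180.0 TPM over the variant genes. Above a mean of 100 TPM lay 8 variant and 3 replication-dependent genes, and the latter include the identical copies HIST2H2AA3 and HIST2H2AA4. For comparison over all rows, the gene ASF1B, with a mean of 101 TPM, ranked 1481st of 39320. Of all 95 histone rows, 10 were listed at 0 in all 3 libraries (10.5%), against 40.7% of all rows. A value of 0 in these tables does not exclude a low level, because the depth was not known.

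**Figure D1:**
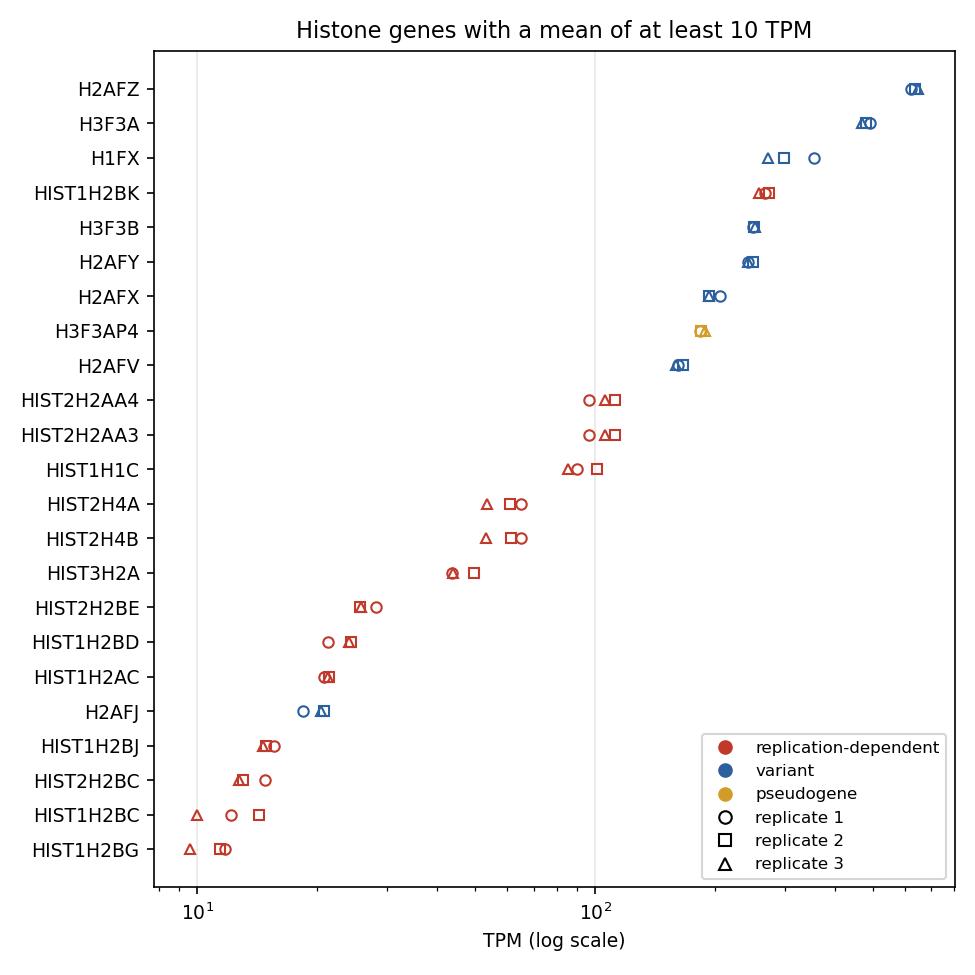
Histone genes that averaged 10 TPM or more, apart from 1 that is not shown, with TPM on a log scale and 1 symbol per library, coloured by class. The variant genes H2AFZ, H3F3A and H1FX lie at the top, and HIST1H2BK is the only replication-dependent gene above 200 TPM.

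**Figure D2:**
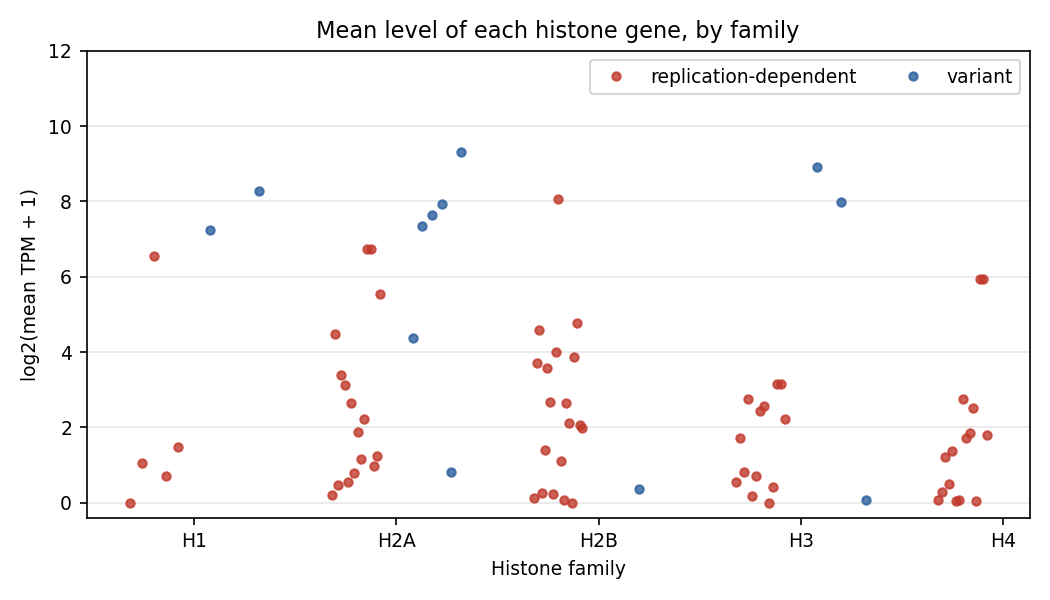
Mean level of each replication-dependent (left of each family) and variant (right) histone gene on the log2(mean TPM + 1) scale, without germ-line genes and pseudogenes. Replication-dependent genes are spread from near 0 upwards in every family, and most variant H1, H2A and H3 genes lie above them.

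The families differed in how their RNA was divided. Variant genes took 94.9% ± 0.254 of the summed TPM of H3 and 80.2% ± 0.988 of that of H2A (SD, n = 3). H2AFX, whose row holds a hairpin, is counted here as a variant, with a mean of 198 of the 1261 TPM of variant H2A. The share of H2A thus depends on its class. In H2B the only row classed as variant, H2BFS (now H2BC12L), took 0.0744% ± 0.0258 (SD, n = 3), and H4 has no variant row. H2BFS is classed so by its name alone. Of its 150-base stretches, 97.8% also occur in a transcript from another locus, so its level is uncertain. The replication-dependent genes had 391 ± 13.4 TPM over 19 H2B rows and 141 ± 9.85 TPM over 15 H4 rows (SD, n = 3). Most of the H2B sum came from HIST1H2BK, with a mean of 266 TPM, whose row runs past the hairpin to a poly(A) signal. Summed replication-dependent H3 was the lowest of the 5 families, at 39.3 ± 2.48 TPM (SD, n = 3) over 13 rows, none of which had a mean of 10 TPM.

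**Figure D3:**
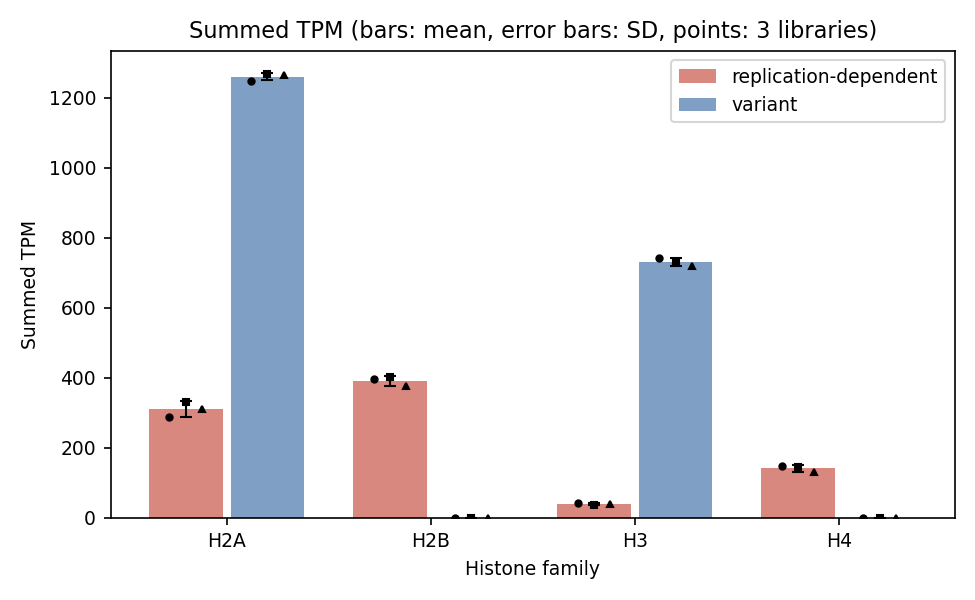
Summed TPM of replication-dependent and variant genes in the core histone families, with bars for the mean, error bars for the SD and points for the 3 libraries. Variant sums stand above replication-dependent sums in H2A and H3, with 1261 TPM for H2A and 731 TPM for H3, and H2B and H4 are made up of replication-dependent genes.

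H2AFZ was the highest histone gene. It encodes H2A.Z, a variant of H2A placed at promoters, and is now called H2AZ1. H2AFZ had 621, 637 and 649 TPM in replicates 1, 2 and 3, and ranked 185th of 39320 rows by mean TPM. Its paralog H2AFV (now H2AZ2), which encodes a second form of H2A.Z, had 161, 166 and 160 TPM. H2AFZ lay above H2AFV in 3 of 3 libraries without overlap, by 1.96 ± 0.05 (SD, n = 3) on the log2(TPM + 1) scale. With coverage in place of TPM, the log2 difference was 3.59.

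H3F3A and H3F3B (now H3-3A and H3-3B) both encode H3.3, the H3 form that is placed in chromatin outside replication. H3F3A had 492, 480 and 468 TPM in replicates 1, 2 and 3. H3F3B had 249, 251 and 252 TPM. H3F3A was higher in 3 of 3 libraries, by 0.93 ± 0.05 (SD, n = 3) on the log2(TPM + 1) scale. Together these genes had 731 ± 10.3 TPM, 18.6 ± 0.964 times the sum of the replication-dependent H3 genes (SD, n = 3). In polyA RNA, mRNAs without a tail may be measured incompletely, and the part of this in the ratio was not tested.

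The row H3F3AP4 (now H3P6), a transcribed pseudogene of H3F3A on chr2:174719800-174720858, had 184, 185 and 189 TPM. Windows of 150 bases, the length of the reads, were taken from the canonical GENCODE v44 transcript of each gene. For H3F3AP4 this transcript covers only part of the row of 1059 bp. All 262 of its windows also occur in transcripts of H3F3A. Of the windows of H3F3A, 56.9% occur in transcripts annotated at other loci. Reads from H3F3A and H3F3AP4 could thus have been assigned to either row, and both levels are uncertain. With H3F3AP4 added to H3F3A, the difference from H3F3B was 1.41 on the log2(TPM + 1) scale. H3F3C, which encodes the related H3.5, had 0.116, 0 and 0.0652 TPM.

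H1FX (now H1-10), a linker histone gene outside the clusters, varied most between libraries among the variant genes of at least 10 TPM. It had 354, 299 and 272 TPM in replicates 1, 2 and 3, a coefficient of variation of 13.6%. Replicate 1 was the highest and replicate 3 the lowest, and the values overlapped with those of HIST1H2BK.

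MacroH2A, a form of H2A with a large extra domain, is encoded by H2AFY (now MACROH2A1) and H2AFY2 (now MACROH2A2). H2AFY had 242, 249 and 242 TPM, while H2AFY2 had 0.478, 0.880 and 0.888 TPM. The difference was 7.14 ± 0.19 (SD, n = 3) on the log2(TPM + 1) scale, and it depended on the scale, at 8.21 with a pseudocount of 0.1 and 5.37 by coverage. In each of the pairs described here, those of H2A.Z, H3.3 and macroH2A, the direction was the same in 3 of 3 libraries. By an exact permutation test that flips signs over libraries, two-sided, each of them had p = 0.25, and 0.25 after Benjamini-Hochberg adjustment over the 4 pairs tested. No lower p can be reached with 3 libraries.

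H2AFX encodes H2A.X, which is phosphorylated at DNA breaks. Its mRNA can end at the stem-loop or at a poly(A) site, and the row runs 1024 bases past the hairpin. H2AFX had 206, 194 and 193 TPM in replicates 1, 2 and 3. H2AFJ, which encodes H2A.J and overlaps the row of C12orf60 over its whole length of 3667 bp, had 18.4, 20.8 and 20.5 TPM. H2AFX was the higher in every library.

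Among replication-dependent genes, HIST1H2BK (now H2BC12) had the highest level and took 27.2% of the summed TPM of its class. HIST1H2BK had 268, 274 and 258 TPM in replicates 1, 2 and 3. Its row, chr6:27138293-27146858, runs 8073 bases past the hairpin to a poly(A) signal and spans the whole row of HIST1H4I, a gene on the other strand. HIST1H4I had 1.60, 3.46 and 1.85 TPM. Its reads and those of HIST1H2BK could be mixed up over 370 bp if strand was not used, and the strand setting is not given in the sources used here.

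Other H2B genes with long rows also reached 10 TPM. HIST2H2BE had 28.2, 25.6 and 25.7 TPM, in a row that runs 1728 bases past the hairpin. HIST1H2BD had 21.3, 24.3 and 24.0 TPM, in a row that runs 12747 bases past it. All distances past the hairpin given here are counted along the genome and may include introns. They are not lengths of mRNA, and short and long transcripts were not separated. HIST2H2BF had 3.15 ± 0.165 TPM (SD, n = 3), and HIST2H2BA, which RefSeq lists as a transcribed pseudogene, was at 0 in all 3 libraries. These 5 rows, all of H2B, are the only replication-dependent rows that end over 200 bases past the hairpin. They had a median of 23.2 TPM and took 32.6% of the summed TPM of their class.

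The 61 replication-dependent rows that end within 20 bases of the hairpin had a median of 1.81 TPM, and 10 of them had a mean of at least 10 TPM (16.4%, against 21.4% of all rows). They ranged from 0 to 105 TPM and together took 65.0% of the class sum. Levels near 100 TPM were thus also found in rows that end at the hairpin. In the GENCODE v44 annotation, 18 of the 68 genes have a transcript that ends over 100 bases past the hairpin, and 9 of these had a mean of at least 10 TPM. Of the other 50 genes, 5 had such a mean, among them HIST1H2BK, which has only a short transcript in that annotation. This division was chosen after the levels had been seen and is given as a description.

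**Figure D4:**
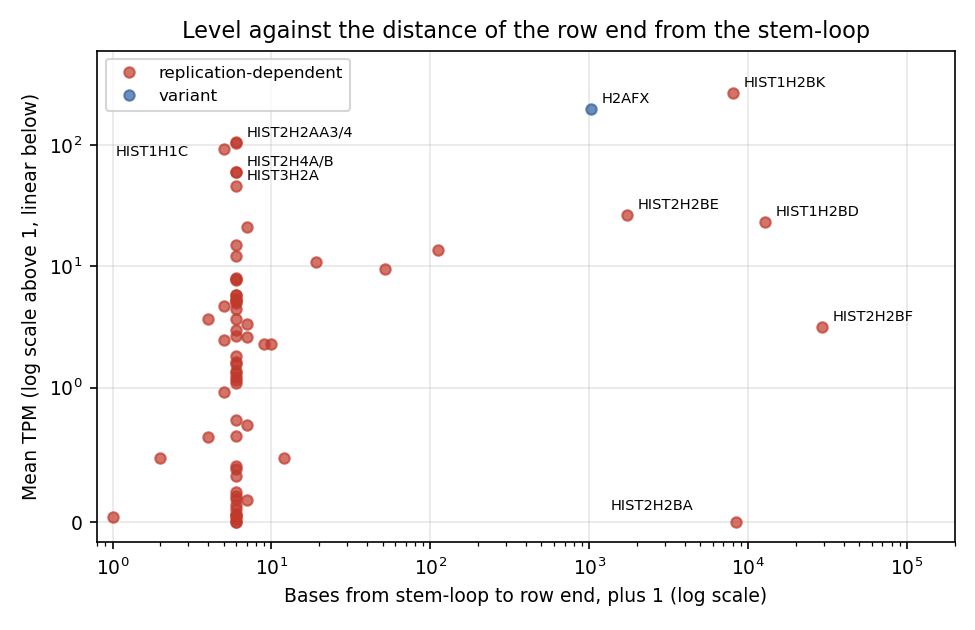
Mean TPM (log scale above 1, linear below) against the number of bases from the stem-loop to the end of the row, plus 1, on a log scale, for the 68 replication-dependent genes and H2AFX. Most rows end about 5 bases past the hairpin and cover levels from 0 to 105 TPM, and the 5 long rows on the right cover levels from 0 to 266 TPM.

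HIST1H1C encodes H1.2, the linker histone with the highest level among the clustered H1 genes. HIST1H1C had 89.9, 101 and 85.5 TPM in replicates 1, 2 and 3, and its row ends 4 bases past the hairpin. No 150-base window of it occurs in a transcript of another gene. The 4 other H1 genes classed as replication-dependent were far lower. HIST1H1E had 1.76, 1.85 and 1.82 TPM, and HIST1H1A was at 0 in all 3 libraries. HIST1H1B lay between 0.746 and 1.68 TPM and HIST1H1D between 0.565 and 0.696 TPM.

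The H2A genes HIST2H2AA3 and HIST2H2AA4 on chromosome 1 have the same sequence, with 0 different bases over 534 bp. HIST2H2AA3 had 96.7, 112 and 106 TPM, and HIST2H2AA4 had 96.7, 112 and 106 TPM. Their ratio stayed between 0.995 and 1.00 in the 3 libraries, and reads from copies without a difference cannot be told apart. Their sum was 193, 225 and 212 TPM in replicates 1, 2 and 3. How reads with several matches were counted is not given, so this sum and the class sum that holds it are uncertain too.

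The same holds for the H4 genes HIST2H4A and HIST2H4B, with 0 different bases over 396 bp. Their sum was 130, 123 and 107 TPM. For the H3 genes HIST2H3A and HIST2H3C, with 0 different bases over 507 bp, the sum lay between 14.5 and 18.1 TPM. In all, 14 of the 68 replication-dependent genes shared at least 1 window of 150 bases with a transcript from elsewhere in the genome, and 54 shared none. The 14 took 39.1% of the class sum. These windows come from canonical transcripts, so the long parts of the rows of HIST1H2BK and HIST1H2BD past the hairpin were not searched. For HIST1H4J and HIST1H4K, 88.8% and 89.5% of the windows occur in each other, with levels of 2.62 and 4.69 TPM that are uncertain in the same way.

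Of the other H2A genes, HIST3H2A had 43.8, 49.5 and 43.8 TPM and HIST1H2AC had 20.8, 21.5 and 21.3 TPM. Neither shares a window with another gene. HIST2H2AC was listed at 0 in replicate 1 and at 2.04 and 2.08 TPM in replicates 2 and 3, the only histone gene at 0 in replicate 1 alone. The neighbouring H2A gene HIST2H2AB had 0.941, 0.915 and 1.03 TPM in the same libraries.

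Of the H2B genes with rows that end within 20 bases of the hairpin, HIST1H2BJ had 15.5, 14.9 and 14.6 TPM. HIST1H2BC had 12.1, 14.2 and 9.97 TPM, the largest coefficient of variation (17.7%) among the histone genes of at least 10 TPM. HIST1H2BG had 11.7, 11.4 and 9.61 TPM. HIST2H2BC, a transcribed pseudogene in RefSeq whose hairpin has 1 mismatched pair, has a row that ends 110 bases past it. It had 14.8, 13.0 and 12.7 TPM, and 74.9% of its windows occur elsewhere.

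After the HIST2H3A and HIST2H3C copies, HIST1H3D had the next H3 level, at 6.31, 5.49 and 5.62 TPM. Its row begins in HIST1H2AD, whose whole 510 bp it overlaps on the same strand, and HIST1H2AD had 0.726, 0.249 and 0.204 TPM. Outside the HIST2 copies, the highest H4 gene was HIST1H4H, with 4.79, 5.39 and 7.12 TPM.

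By cluster, the 52 replication-dependent genes of HIST1 on chromosome 6 summed to 532 ± 20.9 TPM (SD, n = 3), and the 13 genes of HIST2 on chromosome 1 summed to 395 ± 14.3 TPM (SD, n = 3). The median was 1.45 TPM in HIST1 and 7.96 TPM in HIST2. A mean of at least 10 TPM was reached by 7 of 52 genes of HIST1 and by 6 of 13 genes of HIST2, against 21.4% of all rows. The 6 genes of HIST2 include the identical copies HIST2H2AA3 and HIST2H2AA4, and HIST2H4A and HIST2H4B. They also include the RefSeq pseudogene HIST2H2BC, so they are not 6 independent levels. The median of HIST2 was the level of HIST2H3C, which is identical to HIST2H3A. The 2 replication-dependent genes of HIST3 summed to 48.7 ± 3.73 TPM (SD, n = 3), nearly all from HIST3H2A, and HIST4H4 had 2.10, 3.03 and 2.27 TPM.

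Of the 11 histone genes known from the germ line, 10 stayed under 1 TPM in every library, against 63.9% of all rows. Of these, 4 were listed at 0 throughout, a share of the 11 close to the 40.7% of all rows. The exception was HIST3H3, which encodes the testis form H3t, with 4.08, 2.41 and 2.67 TPM. H2AFB1, H2AFB2 and H2AFB3, which encode a short H2A of the testis, stayed between 0.0882 and 0.730 TPM. The 3 rows other than H3F3AP4 that are named as pseudogenes were listed at 0, and 1 of them, HIST2H3PS2, is a protein-coding gene (H3-7) in RefSeq.

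Between libraries, histone genes of at least 10 TPM had no wide ranges, as was the case for nearly all rows at that level. Among the 24 histone genes that averaged 10 TPM or more, the range of log2(TPM + 1) exceeded 1 in 0, against 0.273% of the 8419 rows at that level. The widest range was 0.48, in HIST1H2BC. Below that level, HIST2H2AC and HIST3H2BB, with 4.37, 3.14 and 1.44 TPM in the latter, had a range above 1. The median coefficient of variation was 7.48% over the 14 replication-dependent genes, 2.49% over the 9 variant genes and 4.88% over all rows of at least 10 TPM. The replication-dependent genes were on average lower than the variant genes, and the part of level in this difference was not tested. In the order of the 24 genes, 9 of 23 neighbours had overlapping values. These included H1FX and HIST1H2BK, H3F3B and H2AFY, and HIST2H2AA3 and HIST1H1C.

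The order also depended on the measure for a few genes. Coverage per TPM was within 1% of its highest value, 6.27 in replicate 1, in 20 of the 24 genes. It was 0.947 in H2AFY, 2.06 in H2AFV, 3.86 in HIST1H2BD and 5.92 in HIST1H2BK. By coverage, H2AFY fell from the 6th to the 16th place and H2AFV from the 9th to the 14th. Transcripts were not separated.

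**Figure D5:**
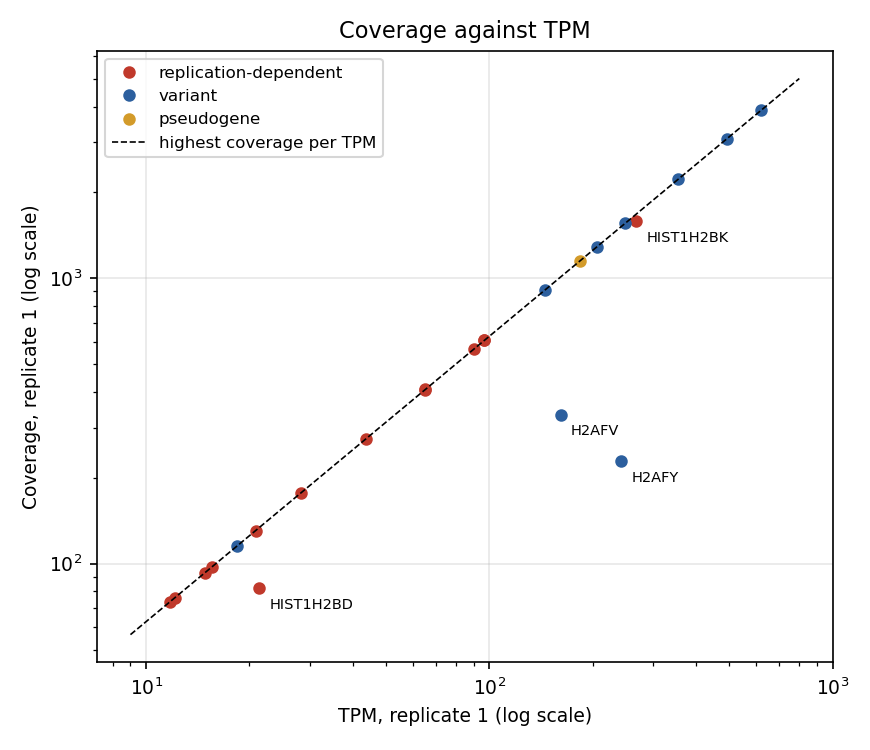
Coverage against TPM in replicate 1, both on log scales, for the 24 histone genes that averaged 10 TPM or more. Of these, 20 lie on the dashed line of the highest coverage per TPM (6.27), and H2AFY, H2AFV, HIST1H2BD and HIST1H2BK lie below it.

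Genes that supply histones were given next, from a list of 27 genes for histone mRNA synthesis and processing and for histone chaperones. In every library all 27 reached 1 TPM, against 33.8% of all rows, and 23 reached 10 TPM, against 20.7% of all rows. The 10 genes for synthesis and 3′ end processing had a median of 23.7 TPM. SLBP, the stem-loop binding protein, had 76.7, 66.8 and 66.9 TPM, the highest of these 10. LSM10 and LSM11, subunits that mark the U7 particle which recognises histone pre-mRNA, differed widely, with 63.7 ± 3.61 and 5.36 ± 0.402 TPM (SD, n = 3). The scaffold SYMPK had 52.6 ± 0.404 TPM, and the cleavage factors CPSF2 and CPSF3 had 44.2 ± 2.94 and 29.2 ± 2.71 TPM (SD, n = 3). The histone exonuclease ERI1 had 18.3 ± 1.01 TPM (SD, n = 3). NPAT and CASP8AP2, which act in transcription at histone gene clusters, had 6.08 ± 0.554 and 7.34 ± 0.593 TPM, and the U7 partner ZNF473 had 9.06 ± 0.304 TPM (SD, n = 3).

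The 17 chaperone and loading genes all reached 10 TPM in each of the 3 libraries, against 20.7% of all rows, with a median of 38.7 TPM. SSRP1 and SUPT16H, the subunits of the FACT complex, had 295 ± 7.69 and 105 ± 5.54 TPM (SD, n = 3). ANP32E, which removes H2A.Z, had 174 ± 8.25 TPM, while SRCAP and EP400, which place it, had 36.2 ± 1.63 and 18.7 ± 1.22 TPM (SD, n = 3). Of the chaperones tied to replication, NASP had 112 ± 1.62 TPM, CHAF1A 71.1 ± 0.669 TPM and CHAF1B 13.0 ± 0.528 TPM (SD, n = 3). ASF1B, the form linked to dividing cells, had 101 ± 3.58 TPM, and ASF1A had 18.0 ± 1.46 TPM (SD, n = 3).

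The H3.3 chaperones were at lower levels than H3.3 mRNA itself. HIRA had 29.2 ± 0.745 TPM, with its partners UBN1 and CABIN1 at 47.0 ± 2.21 and 19.1 ± 0.728 TPM (SD, n = 3). DAXX and ATRX, which place H3.3 at repeats, had 38.7 ± 1.63 and 20.2 ± 1.27 TPM (SD, n = 3). CENPA, the H3 form of centromeres, had 52.9, 49.9 and 53.9 TPM, and its chaperone HJURP had 32.6 ± 0.542 TPM (SD, n = 3). CENPA stood above the summed 13 replication-dependent H3 genes in 3 of 3 libraries. The rows of those H3 genes end at the hairpin, and mRNAs without a tail may be measured incompletely in polyA RNA. The part of this in the comparison was not tested.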

How the data were processed

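RNA was measured in 3 libraries labelled as wild-type HepG2. Paired-end reads of 150 bp were mapped to GRCh38 by the authors with STAR 2.6.1a, after quality checks in FastQC 0.11.8 and trimming in Trim Galore 0.6.2. StringTie is named in the submitters' processing notes without a role. The annotation, the strand setting and the handling of reads with several matches are not given in the sources used here. Of the deposited columns, coverage is the mean read depth of a gene without scaling between libraries. The deposited FPKM is scaled for the length of a gene and the size of a library. The deposited TPM has an equal sum in every library and was used unchanged.

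Rows were joined by name, strand and position (43389 rows in all 3 tables, with 6 rows that were repeated or not in all of them left out), and 39320 rows on assembled chromosomes were kept. Replication-dependent genes were those with HIST names and variants the other names, apart from genes known from the germ line and named pseudogenes. Named genes were those with a mean of at least 10 TPM, the 4 pairs, the highest genes of each family and class and the supply list. Other genes were named after their values were seen. The members and lists were chosen with earlier results of these data known. Pairs were compared by the log2 ratio with a pseudocount of 1 and an exact sign-flip permutation test, and 1 of the 4 is not reported here. All 96 rows taken by name were matched to a current RefSeq symbol (GRCh38.p14), and 19 had the same start and end there. Sequences were read from GRCh38, the build of the deposited coordinates. Windows of 150 bases were taken from the canonical GENCODE v44 transcript of each gene, or from the row where there was none. They were searched in GENCODE v44 transcripts, leaving out transcripts that overlap the row. With no counts, no counting error could be given, and precision is the SD over 3 libraries. The range calculation was tested on simulated data. Versions were pandas 2.3.3, scipy 1.17.1, numpy 2.4.6, pysam 0.24.0 and matplotlib 3.10.9, under Python 3.11.15.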

Additional observations from a re-analysis of the deposited data

How the results depend on the processing

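Of 71 recomputed values, 8 counts, sums and shares moved by more than 1 SD or, for counts, by more than 1.5 times. Only pair differences could reverse, and 0 of them did. Without mitochondrially encoded genes, the summed TPM rose to 1224 for replication-dependent and to 3066 for variant genes. With a minimum of 10 TPM in all 3 libraries, 12 replication-dependent genes remained in place of 39. With a minimum mean of 1 TPM, 2 replication-dependent genes had a range above 1, HIST2H2AC and HIST3H2BB. The variant share was 69.1% by coverage, 65.7% with H2AFX moved to the other class and 72.9% with H3F3AP4 counted as a variant, which raised the variant sum to 2636 TPM. The settings with H3F3AP4 and without RefSeq pseudogenes were chosen after seeing the data. With each replicate left out, the variant share ranged from 71.2% to 71.9%. No paired analysis was possible because there is a single condition. All 4 pair differences kept their direction with FPKM, coverage, a pseudocount of 0.1 and each replicate left out, but some moved by more than 1 SD. On the log2 scale, H2AFZ to H2AFV went from 1.96 to 3.59 by coverage, H3F3A to H3F3B from 0.93 to 1.41 with H3F3AP4 added, and H2AFY to H2AFY2 from 7.14 to 5.37 by coverage, 6.44 by FPKM and 8.21 with the smaller pseudocount. The cause was not tested. With 1 replicate left out, the pair test cannot give a p below 0.5. The unknown depth limits every low value.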
